A study of Mus musculus with 18 samples.

Results

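The genes described here are a fixed list of 33 targets of the transcription factor p53, followed in small-intestinal crypts of mice that had lost E2f1-3, Myc or all of these genes. A gene was taken into the set where an array probe set carried its symbol as the only gene, and the brightest such probe set over the 18 arrays stood for the gene. On this basis 30 of the 33 genes were measured, among 18193 genes in all, and Trp53, Bax and Gdf15 are not analysed here. The arrays fell into control crypts (n = 4), E2f TKO crypts with E2f1, E2f2 and E2f3 ablated (n = 5), Myc KO crypts with Myc ablated (n = 4) and E2f/Myc QKO crypts with all 4 genes ablated (n = 5, QKO in what follows). All mice were adults of 2 months, and crypts were collected 2 days after ablation by the inducible Cre driver Ah-cre, whose promoter is that of the xenobiotic-response gene Cyp1a1. The labels do not say whether the controls carried the driver or the floxed alleles, and they do not say whether the arrays of a group came from separate mice, so every p-value measures the spread between these samples. Values are the deposited log2 signals, on which a difference of 1 is a 2-fold change. A gene was called where its limma adjusted p over all 18193 genes was below 0.05.

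p53 is a transcription factor that accumulates when its ubiquitin ligase Mdm2 no longer degrades it, for example after DNA damage, oncogene activity or disturbed ribosome assembly. Its targets feed back on p53 itself, halt the cell cycle, start mitochondrial or receptor-driven cell death, repair DNA, or restrain growth signalling. E2f factors and Myc both drive genes of proliferation, and both can also activate p53 through the Arf and DNA-damage branches. In the gut, p53 is best known for its part in the response of crypt stem and progenitor cells to irradiation.

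The arrays had medians of 6.14 to 6.26 and correlated at 0.973 to 0.996 across probe sets. The log2 signal of the 3′ actin control probe set minus that of the 5′ one, which rises as RNA degrades, was 0.307 to 0.438 in control, 0.183 to 0.219 in Myc KO, 0.191 to 0.310 in QKO and 0.255 to 0.780 in E2f TKO (highest in array 2), and its part in the results was not tested. Epithelial markers were strong (mean Epcam 14.06, Krt8 14.08, Krt19 14.11, Vil1 12.74 and Cdh1 12.33), and the crypt stem cell markers Olfm4 and Lgr5 were at 13.13 and 7.91. Cdh1 was at 12.07 to 12.14 in Myc KO and 11.89 to 12.28 in QKO, below all controls (12.44 to 12.56). Myc ranged from 8.11 to 8.40 in Myc KO and from 7.94 to 8.52 in QKO, below all control (9.69 to 10.30) and E2f TKO (9.99 to 10.66) arrays. E2f3 fell in QKO (-0.64 ± 0.19, SE, limma adjusted p = 0.0192, or 0.0631 without control 4), whereas E2f1 (difference 0.18) and E2f2 (0.15) were not called, and whether these probe sets lie in the deleted exons is not stated in the labels. In the arrays labelled E2f TKO 2 and 5, E2f3 stood at 9.35 and 9.10, above every control (8.62 to 8.96), and Cyp1a1 stood at 5.05 and 4.91 against 12.66 to 14.09 in the other arrays. Member calls in the 2-group comparisons with E2f TKO are therefore given with and without them. Other values of the group, such as medians, signs, spreads and interaction terms, include them unless stated. Xist was high (12.02 to 13.40) in control 3, E2f TKO 1 and 4, and QKO 4 and 5, and low (6.44 to 6.96) elsewhere. Since each array is a bulk crypt sample, fewer cells of a type and less RNA per cell cannot be told apart.

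Promoters of a few members whose signals changed are shown first, because p53, Myc and E2f all act through short DNA motifs near a gene's start. RefSeq promoters of GRCm38.p6, each 300 bases from 250 before to 50 after a start, were at hand for 22 of the 30 members. The p53 consensus decamer was searched on both strands, as was the full p53 site, which is a pair of such decamers up to 13 bases apart and so overlaps the decamer search. CACGTG, the E-box bound by Myc, and the E2F motif in the forms TTTCCCGC, TTTGGCGC and TTTCGCGC were searched in the same way. A decamer stood in the promoters of 7 of 22 members (31.8%), Aen, Ccng1, Ei24, Gadd45a, Mdm2, Polk and Sesn1, against 9.55% of 27025 genes. A full p53 site stood in 0 of 22 members and in 0.074% of genes. The search allowed no mismatch and covered these 300 bases alone, so imperfect or more distant sites were not looked for. CACGTG stood in 4 members (18.2%), Aen, Bbc3, Eda2r and Fas, against 8.09% of genes, and the E2F motif in 0 members against 2.12% of genes. The 4 promoters printed below, with decamer and CACGTG matches in capitals, belong to the member that fell in Myc KO (Aen), the member that fell furthest in QKO (Sesn1) and a pair that rose about 2-fold in QKO (Eda2r and Phlda3). A match only says that these letters are there. Those 4 sequences are given 5′ to 3′ on the gene's own strand.
Aen, chr7:78895808-78896107, plus strand, decamer at -121 and CACGTG at -79 from the start: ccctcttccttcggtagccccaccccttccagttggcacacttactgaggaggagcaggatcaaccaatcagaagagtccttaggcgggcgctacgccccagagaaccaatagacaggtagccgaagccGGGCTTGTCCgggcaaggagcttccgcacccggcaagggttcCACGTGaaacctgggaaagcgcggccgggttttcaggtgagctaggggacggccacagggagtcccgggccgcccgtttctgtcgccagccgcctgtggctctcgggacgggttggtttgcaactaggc
Sesn1, chr10:41887189-41887488, plus strand, decamer at -173: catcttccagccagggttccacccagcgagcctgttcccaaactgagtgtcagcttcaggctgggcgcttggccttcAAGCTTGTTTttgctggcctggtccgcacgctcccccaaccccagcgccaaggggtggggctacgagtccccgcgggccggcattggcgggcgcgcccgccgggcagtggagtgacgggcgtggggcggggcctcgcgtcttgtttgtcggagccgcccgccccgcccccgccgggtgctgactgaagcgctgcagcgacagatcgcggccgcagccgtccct
Eda2r, chrX:97377160-97377459, minus strand, CACGTG at 44 after the start: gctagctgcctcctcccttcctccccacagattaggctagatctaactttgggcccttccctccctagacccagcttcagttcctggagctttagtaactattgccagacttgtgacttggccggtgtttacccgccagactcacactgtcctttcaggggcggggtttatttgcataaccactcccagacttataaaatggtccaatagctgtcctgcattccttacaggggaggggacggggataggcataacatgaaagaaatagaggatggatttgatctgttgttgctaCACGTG
Phlda3, chr1:135765835-135766134, plus strand, with no match: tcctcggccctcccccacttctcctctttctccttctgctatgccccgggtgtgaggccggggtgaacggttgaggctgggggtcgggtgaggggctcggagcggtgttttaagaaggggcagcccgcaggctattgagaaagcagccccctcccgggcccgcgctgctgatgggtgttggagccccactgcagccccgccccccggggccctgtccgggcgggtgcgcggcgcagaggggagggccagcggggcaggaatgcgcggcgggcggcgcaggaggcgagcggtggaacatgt

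In QKO crypts, which had lost E2f1-3 and Myc together, 13 of the 30 p53 targets changed against control, 11 upward and 2 downward. The background was 26.9% of all genes called in this comparison, 14.3% higher and 12.6% lower. The largest rises were in Ephx1 (2.41-fold), Phlda3 (2.17-fold), Plk2 (2.08-fold), Eda2r (2.04-fold) and Trp53inp1 (2.03-fold). Sesn1 and Xpc fell. The median log2 difference of the 30 members was 0.18, beside 0.03 over all genes tested, and 21 of 30 differences were positive. The groups of arrays did not overlap for 12 members that were higher in QKO (13.2% of all genes) and 4 that were lower (13.0%). The 2-group differences of all members with their intervals, and the arrays behind each called member, are plotted next.

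**Figure D1:**
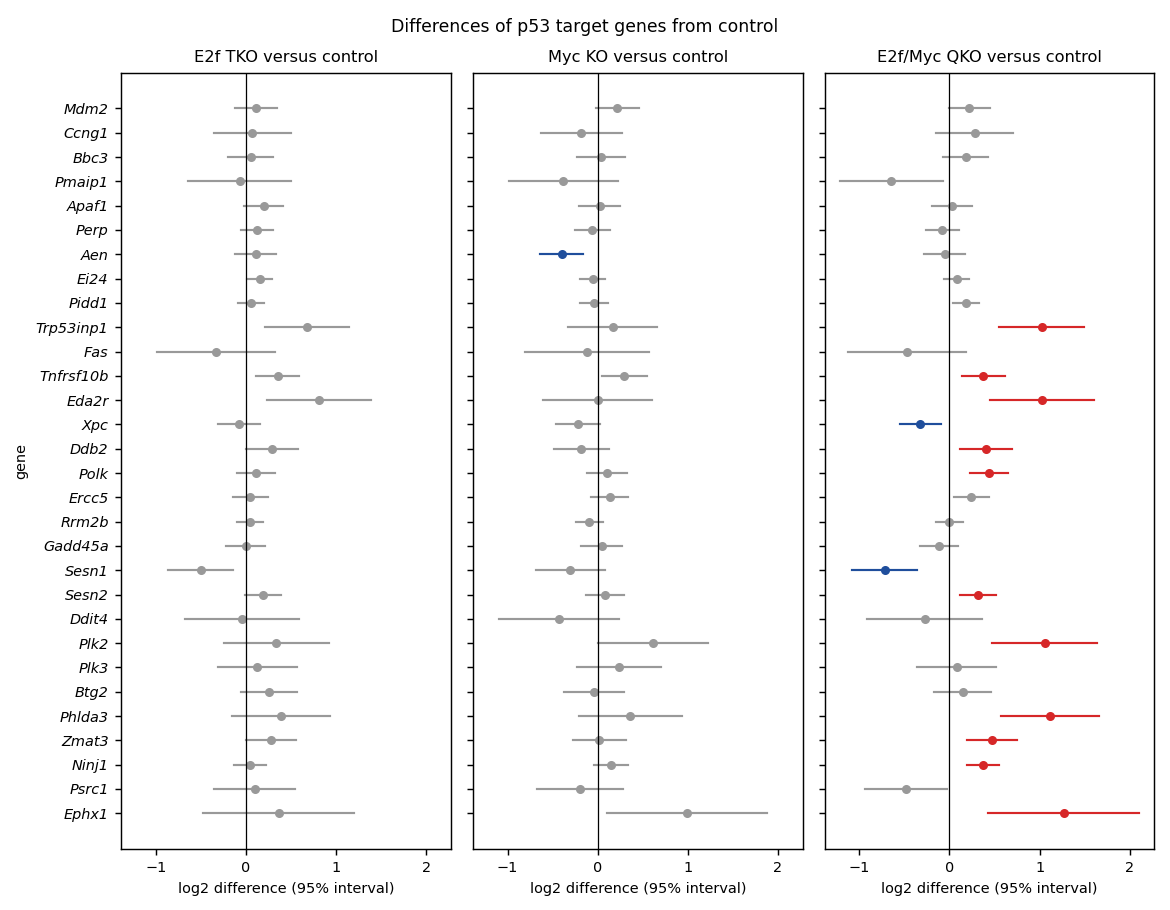
Log2 difference from control (horizontal axis) of each of the 30 measured p53 targets (rows) in E2f TKO, Myc KO and QKO crypts, as a point with its 95% interval. Red marks members called higher, blue members called lower and grey members not called by limma. The QKO panel holds 11 red and 2 blue points, the Myc KO panel 1 blue point and the E2f TKO panel none.

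**Figure D2:**
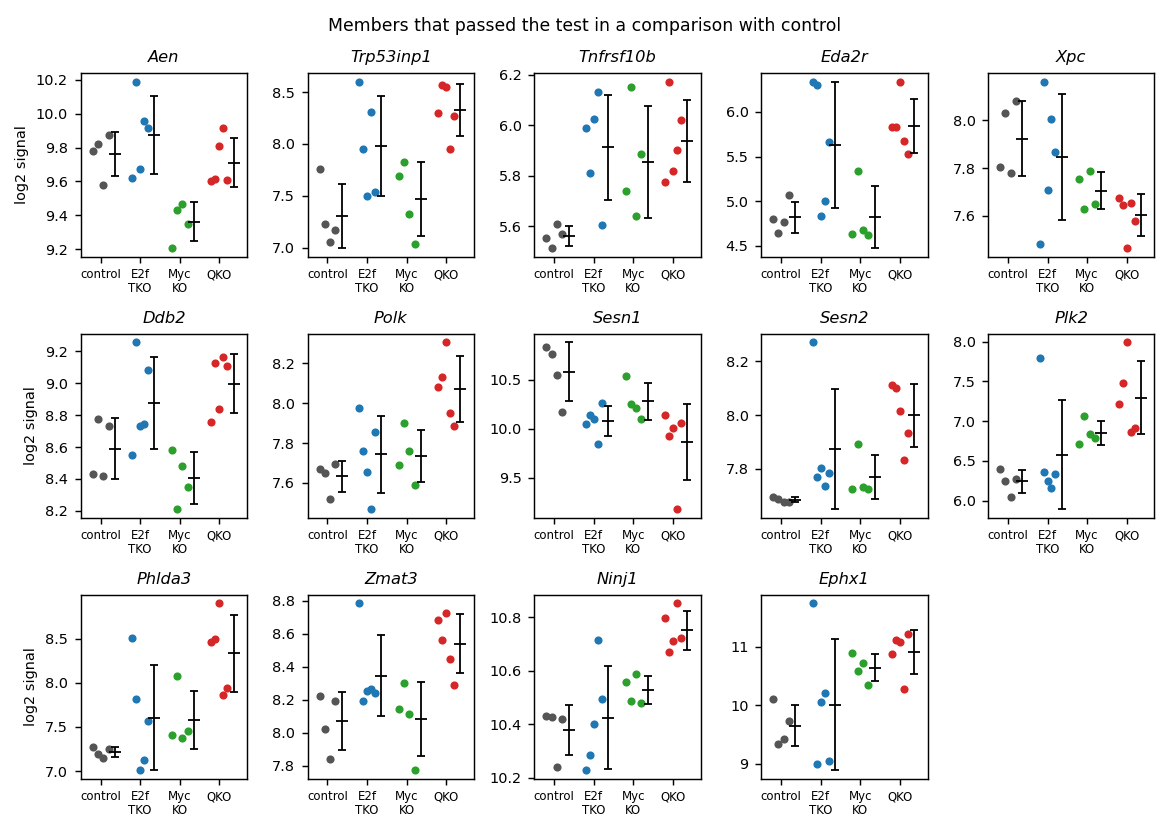
Deposited log2 signal (vertical axis) of the 14 members called in a comparison with control, with 1 point per array and a bar for the mean ± SD of each of the 4 groups (n = 4, 5, 4 and 5). Phlda3, Eda2r and Trp53inp1 are separate between control and QKO, and the E2f TKO points spread over both.

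Of the genes that feed back on p53, neither measured member was called in QKO. Mdm2, the ubiquitin ligase that degrades p53, read 9.85, 9.97, 9.84 and 9.84 in control and 10.07, 10.15, 10.20, 9.98 and 10.08 in QKO. The arrays did not overlap, yet the difference of 0.22 ± 0.11 had a 95% interval of -0.01 to 0.45 and a limma adjusted p of 0.143. Without E2f TKO 1, whose Mdm2 of 10.46 was the highest of the 18 arrays and which enters the shared variance, the adjusted p was 0.0220. Ccng1, the cyclin G1 gene whose product acts with a phosphatase on Mdm2, differed by 0.28 ± 0.20 (limma adjusted p = 0.329). A second Ccng1 probe set of nearly the same brightness gave 0.63 with an adjusted p of 0.0377 over probe sets, so the 2 probe sets disagree on the call.

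Among 8 measured genes of mitochondrial and related cell death, 1 rose in QKO and 7 were not called. Trp53inp1, which promotes p53 phosphorylation and autophagic death, read 7.76, 7.23, 7.06 and 7.17 in control arrays. In QKO it read 8.29, 8.57, 8.55, 7.95 and 8.27. Every QKO array stood above every control, and the difference was 1.02 ± 0.22 (SE, limma adjusted p = 0.00277). It was 0.66 when the gene's probe sets were averaged. The BH3-only death genes were not called. Bbc3, which encodes Puma, differed by 0.18 ± 0.12 (adjusted p = 0.273), with QKO arrays at 6.33, 6.35, 6.49, 5.97 and 5.99 around controls of 5.88 to 6.13. Pmaip1, which encodes Noxa, was lower in all QKO arrays (8.73, 8.57, 8.58, 7.34 and 8.80) than in control (9.27, 9.13, 8.90 and 8.89). That difference of -0.65 ± 0.27 missed the threshold (limma adjusted p = 0.0878), passed it without E2f TKO 1 (0.0436), and had QKO 4 as its lowest array. Apaf1, the apoptosome scaffold, differed by 0.03, Perp, a desmosomal and death-promoting membrane protein, by -0.08, and Ei24, an endoplasmic reticulum protein, by 0.08. Pidd1, the core of the PIDDosome, was above control in all QKO arrays by 0.19 ± 0.069 with an adjusted p of 0.0551, or 0.0420 without E2f TKO 1 and 0.0277 with E2f TKO 2 and 5 dropped. Aen, an exonuclease that degrades DNA during apoptosis, read 9.60, 9.61, 9.81, 9.92 and 9.61 in QKO, which overlapped control (9.78, 9.82, 9.58 and 9.87), and differed by -0.05 ± 0.11 (adjusted p = 0.759).

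Of the 3 death receptors, Eda2r and Tnfrsf10b rose in QKO and Fas was not called. Eda2r and Tnfrsf10b were dim, with mean signals of 5.33 and 5.83 against a median of 7.24 over all genes. Eda2r, the receptor for the ectodysplasin form EDA-A2, read 4.80, 4.64, 4.77 and 5.06 in control and 5.83, 5.83, 6.34, 5.68 and 5.52 in QKO. The 2 groups did not overlap, and the difference was 1.03 ± 0.27 (limma adjusted p = 0.0104). Tnfrsf10b, the mouse receptor for the death ligand TRAIL, read 5.56, 5.51, 5.61 and 5.57 in control and 5.77, 6.17, 5.82, 5.90 and 6.02 in QKO, a difference of 0.38 ± 0.11 (adjusted p = 0.0202). Its call was lost with quantile normalization (0.0871) and without control 2 or QKO 2 (0.0532 and 0.0561). Fas, the receptor of Fas ligand, read 7.79, 7.67, 7.69, 5.92 and 7.05 in QKO against 7.96, 7.69, 7.66 and 7.49 in control. QKO 4 stood far under the other arrays, and the difference of -0.47 ± 0.31 was not called (adjusted p = 0.281).

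Of 6 genes of DNA repair and nucleotide supply, Polk and Ddb2 rose in QKO, Xpc fell, and Ercc5, Rrm2b and Gadd45a were not called. Polk, a translesion DNA polymerase, read 7.67, 7.65, 7.52 and 7.70 in control and 8.08, 8.13, 8.31, 7.95 and 7.89 in QKO, with no overlap. Its difference was 0.44 ± 0.10 (limma adjusted p = 0.00417). Ddb2 and Xpc, which both recognise ultraviolet lesions for nucleotide excision repair, moved in opposite directions. Ddb2 read 8.43, 8.77, 8.42 and 8.74 in control and 8.76, 9.12, 8.84, 9.16 and 9.11 in QKO, which overlapped at QKO 1, and rose by 0.41 ± 0.14 (adjusted p = 0.0347). Xpc read 7.80, 8.03, 7.78 and 8.08 in control and 7.68, 7.64, 7.46, 7.65 and 7.58 in QKO, with every QKO array lower, and its difference was -0.32 ± 0.11 (adjusted p = 0.0378). Both calls were near the threshold and were lost on leaving out any of several arrays. Ddb2 lost its call on averaging probe sets (0.0705) and without control 1 or 3 or QKO 2, 4 or 5 (0.0678 to 0.106), and Xpc without control 2 or 4 or QKO 2, 3 or 5 (0.0556 to 0.123). Ercc5, the nuclease that cuts beside such lesions, differed by 0.24 (adjusted p = 0.0580, or 0.0135 without the arrays labelled E2f TKO 2 and 5), Rrm2b, a p53-induced subunit of ribonucleotide reductase, by 0.00, and the stress sensor Gadd45a by -0.12.

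Growth and stress regulators held 5 of the 13 calls in QKO, with 4 of 8 measured members higher and 1 lower. Phlda3, which blocks Akt by competing for membrane lipids, read 7.27, 7.20, 7.14 and 7.25 in control and 8.46, 8.50, 8.90, 7.86 and 7.94 in QKO. All QKO arrays were above all controls, and the difference was 1.11 ± 0.26 (limma adjusted p = 0.00416). Plk2, a polo-like kinase, read 6.39, 6.25, 6.05 and 6.27 in control and 7.22, 7.48, 7.99, 6.86 and 6.92 in QKO, likewise with no overlap and a difference of 1.05 ± 0.28 (adjusted p = 0.00914). It was 0.63 as the mean of its probe sets, with the call kept. Zmat3, an RNA-binding zinc finger protein, read 8.22, 8.02, 7.84 and 8.19 in control and 8.68, 8.56, 8.73, 8.45 and 8.29 in QKO. It rose by 0.47 ± 0.13 (adjusted p = 0.0140), a call lost without control 3 (0.0558).

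The 2 sestrins, which restrain mTORC1 signalling under stress, went opposite ways in QKO. Sesn2 read 7.69, 7.69, 7.68 and 7.68 in control and 8.11, 8.10, 8.01, 7.83 and 7.93 in QKO, a difference of 0.31 ± 0.094 (limma adjusted p = 0.0200), and a second probe set gave 0.83 (adjusted p over probe sets = 4.05e-04). Sesn1 read 10.84, 10.76, 10.55 and 10.17 in control and 10.14, 9.93, 10.002, 9.17 and 10.06 in QKO, where every array was lower. Its difference was -0.72 ± 0.17 (adjusted p = 0.00545), and other Sesn1 probe sets gave -1.06 and -1.41, the latter with an adjusted p of 2.72e-05 over probe sets. Ddit4, another mTORC1 restraint, the kinase Plk3 and the anti-proliferative Btg2 were not called, with differences of -0.28, 0.08 and 0.15. Ddit4 varied widely within control (9.81 to 10.91).

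Of the 3 remaining members, Ninj1 and Ephx1 rose in QKO. Ninj1, an adhesion molecule that also ruptures the membrane of dying cells, read 10.43, 10.43, 10.24 and 10.42 in control and 10.80, 10.67, 10.71, 10.85 and 10.72 in QKO, a difference of 0.37 ± 0.084 (limma adjusted p = 0.00351). This call rests on probe sets of the cross-hybridising suffix types. Without those types the difference was 0.11 (adjusted p = 0.393). Ephx1, the microsomal epoxide hydrolase that detoxifies reactive epoxides, read 10.10, 9.33, 9.42 and 9.72 in control and 10.88, 11.11, 11.08, 10.28 and 11.22 in QKO, a difference of 1.27 ± 0.40 (adjusted p = 0.0256) that lost its call without control 2, 3 or 4 or QKO 2, 3 or 5 (0.0512 to 0.0731). The arrays labelled E2f TKO 2 and 5, where Cyp1a1 was low, had the lowest Ephx1 of all 18 (8.98 and 9.05), and the part of the Cre inducer in this gene's signal was not tested. Psrc1, a spindle protein, was lower in all QKO arrays (7.44, 7.19, 7.12, 6.91 and 6.78) than in control (7.72, 7.47, 7.58 and 7.52) and was not called (-0.48 ± 0.21, adjusted p = 0.106). It passed the test when the arrays labelled E2f TKO 2 and 5 were left out of the shared variance (0.00565).

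Loss of Myc alone changed 1 of the 30 targets, against 8.31% of all genes called in this comparison (3.59% higher and 4.72% lower). Aen, whose promoter above holds both a decamer and a CACGTG, read 9.20, 9.43, 9.47 and 9.35 in Myc KO against 9.58 to 9.87 in control. Every Myc KO array was lower than every control, and Aen fell by 0.40 ± 0.11 (SE, limma adjusted p = 0.0378). The call was lost without control 1, 2 or 4, without any of the 4 Myc KO arrays, after quantile normalization and on averaging probe sets, with adjusted p up to 0.115. In QKO crypts, which had also lost Myc, Aen differed from control by -0.05, with a 95% interval of -0.28 to 0.18. All QKO arrays stood above all Myc KO arrays, by 0.35 ± 0.11, which was not called (adjusted p = 0.0596, or 0.0331 without E2f TKO 1 and 0.0272 with E2f TKO 2 and 5 dropped). The other members with CACGTG, Bbc3, Eda2r and Fas, differed from control by 0.04, 0.00 and -0.12 in Myc KO and were not called. No other member with a decamer was called in Myc KO either. At an unadjusted p below 0.05 there were 3 of 30 members in Myc KO against control, beside 23.8% of all genes, and the median difference was 0.01 beside 0.02 over all genes. In 7 members every Myc KO array was above every control, against 10.6% of all genes, both counted whether called or not. None of these members was called. These were Mdm2, Sesn2, Phlda3, Plk2, Tnfrsf10b, Ninj1 and Ephx1. Plk2, for example, read 6.71, 7.06, 6.83 and 6.79 in Myc KO (difference 0.61 ± 0.29, adjusted p = 0.210), and Ephx1 read 10.90, 10.59, 10.71 and 10.35 (0.99 ± 0.42, adjusted p = 0.159). Mdm2 differed by 0.22 with a 95% interval of -0.02 to 0.46. When the arrays labelled E2f TKO 2 and 5 were left out of the shared fit, Ephx1 reached an adjusted p of 0.0492. Without E2f TKO 1 in that fit, limma called both Plk2 (adjusted p = 0.0337) and Ephx1 (0.0224) higher in Myc KO. Other probe sets of the sestrins also passed the test in Myc KO, with Sesn1 at -1.23 (adjusted p over probe sets = 7.09e-04) and Sesn2 at 0.57 (0.0223).

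In E2f TKO crypts limma called 0 of the 30 targets, against 2.90% of all genes (1.68% higher and 1.22% lower). At an unadjusted p below 0.05 there were 5 of 30 members, beside 14.0% of all genes. The median difference was 0.11, beside 0.00 over all genes, and 24 of 30 differences were positive. Individual members differed widely between the 5 arrays. Eda2r read 6.34, 6.31, 4.83, 5.00 and 5.66, so that arrays 1, 2 and 5 stood within or near the QKO range and the others near control, and the difference of 0.81 ± 0.27 was not called (adjusted p = 0.148). Trp53inp1 read 8.60, 7.96, 7.50, 8.31 and 7.54 (0.68 ± 0.22, adjusted p = 0.137), and Phlda3 read 8.50, 7.81, 7.02, 7.13 and 7.57 (0.39 ± 0.26, adjusted p = 0.570). Sesn2 was the sole member with every E2f TKO array above every control, at 8.27, 7.77, 7.80, 7.74 and 7.78, against 2.89% of all genes. When the arrays labelled E2f TKO 2 and 5 were left out, Tnfrsf10b was called higher (0.49, adjusted p = 0.0143). Trp53inp1 was then at 0.83 (0.0540), Eda2r at 0.57 (0.282) and Ephx1 at 1.02 (0.0742), none called. With all arrays Ephx1 was at 0.36.

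The 3 comparisons with control share the same 4 control arrays, so their values are given side by side. Phlda3 differed from control by 0.39 in E2f TKO, 0.36 in Myc KO and 1.11 in QKO, and Plk2 by 0.34, 0.61 and 1.05. Eda2r differed by 0.81, 0.00 and 1.03 in the same order, Trp53inp1 by 0.68, 0.17 and 1.02, and Sesn1 by -0.50, -0.30 and -0.72. Single arrays weighed on some of these values. Without E2f TKO 1, the E2f TKO difference was 0.17 for Phlda3 and 0.03 for Plk2. It was 0.63 for Eda2r, 0.52 for Trp53inp1 and -0.50 for Sesn1. In Myc KO, Phlda3 was 8.07 in array 2 and 7.38 to 7.46 in the others. Whether the joint loss differed from the sum of the single losses was tested as an interaction. Limma called 0 of 30 members for it, against 0.0550% of all genes, and 0 members had an unadjusted p below 0.05, beside 6.34% of all genes. The median interaction term was 0.06, or 0.01 over all genes. The interaction term was 0.36 ± 0.36 for Phlda3, with a 95% interval of -0.40 to 1.13, and 0.21 ± 0.39 for Eda2r, with an interval of -0.60 to 1.03. Both intervals include 0 and also terms of more than 1.

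Set directly against Myc KO, QKO crypts had 4 members higher and 0 lower, against 7.68% of all genes (4.60% higher and 3.09% lower). Trp53inp1 read 7.69, 7.83, 7.33 and 7.04 in Myc KO and was higher in QKO by 0.86 ± 0.22 (limma adjusted p = 0.0242). Eda2r read 4.63, 5.34, 4.68 and 4.62 in Myc KO and was higher by 1.03 ± 0.27 (adjusted p = 0.0281). Both calls were lost on leaving out any of several arrays. For Trp53inp1 these were Myc KO 3 or 4 or QKO 2 or 3 (adjusted p up to 0.0942, and also lost with Xist as a covariate). For Eda2r they were Myc KO 1, 3 or 4 or QKO 2 or 3 (up to 0.0835). Ddb2 read 8.58, 8.21, 8.48 and 8.35 in Myc KO, under every QKO array, and was higher in QKO by 0.59 ± 0.14 (adjusted p = 0.0120), a call kept in all 29 alternatives. Zmat3 read 8.15, 8.30, 8.12 and 7.77 in Myc KO and was higher in QKO by 0.46 ± 0.13 (adjusted p = 0.0434) and lost its call in 12 alternatives (adjusted p up to 0.156). The median difference was 0.15 beside 0.01 over all genes. In 6 members, and in 7.22% of all genes, every QKO array was above every Myc KO array.

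Against E2f TKO, QKO crypts had 3 members higher and 0 lower, while 17.0% of all genes were called (9.09% higher and 7.95% lower). Ninj1 read 10.23, 10.28, 10.40, 10.72 and 10.49 in E2f TKO and was higher in QKO by 0.33 ± 0.079 (limma adjusted p = 0.00992), Polk read 7.98, 7.76, 7.66, 7.47 and 7.85 and was higher by 0.33 ± 0.10 (adjusted p = 0.0259), and Phlda3 was higher by 0.73 ± 0.24 (adjusted p = 0.0483). All 3 overlapped between the groups. Phlda3 lost its call in 18 of 29 alternatives (adjusted p up to 0.131), Polk in 5 (up to 0.0854) and Ninj1 in 2, 1 of them the fit without the cross-hybridising probe set types (0.599). The median difference was 0.07 beside 0.04 over all genes. With the arrays labelled E2f TKO 2 and 5 left out, the adjusted p was 0.0423 for Ninj1, 0.0445 for Polk and 0.0952 for Phlda3. Ercc5 was then called higher (0.34, 0.00933) and Perp lower (-0.30, 0.0302). A single array also set this count. It was 9, with 7 higher and 2 lower, without E2f TKO 1 and 1 without QKO 2 or without QKO 3. For fits that left out arrays, here and below, the share of all genes called is not given. A change in count is therefore not read as particular to the members. Between the single losses, Myc KO crypts had 3 members lower than E2f TKO and 0 higher, against 14.0% of all genes called (6.16% higher and 7.87% lower). Aen differed by -0.51 ± 0.11 (adjusted p = 0.00483), with E2f TKO arrays at 9.62, 10.19, 9.67, 9.96 and 9.92 above every Myc KO array and the call kept in all 29 alternatives. Ddb2, at 8.55, 9.26, 8.73, 8.75 and 9.08 in E2f TKO, was lower too (-0.47 ± 0.14, adjusted p = 0.0299). Ei24 read 11.64, 11.60, 11.47, 11.67 and 11.73 in E2f TKO and 11.41, 11.32, 11.51 and 11.42 in Myc KO, which overlapped, and was lower by the same test (-0.21 ± 0.064, adjusted p = 0.0393). Ei24 lost its call in 12 of 29 alternatives and Ddb2 in 6. Both lost it when the arrays labelled E2f TKO 2 and 5 were left out (0.174 for Ddb2, with a difference of -0.27, and 0.121 for Ei24), whereas Perp was then called lower (-0.28, 0.0463). The median difference of the 30 members was -0.12 beside 0.02 over all genes. The count was 6, with 3 higher and 3 lower, without E2f TKO 1, and 1 without E2f TKO 2, E2f TKO 5 or Myc KO 4.

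**Figure D3:**
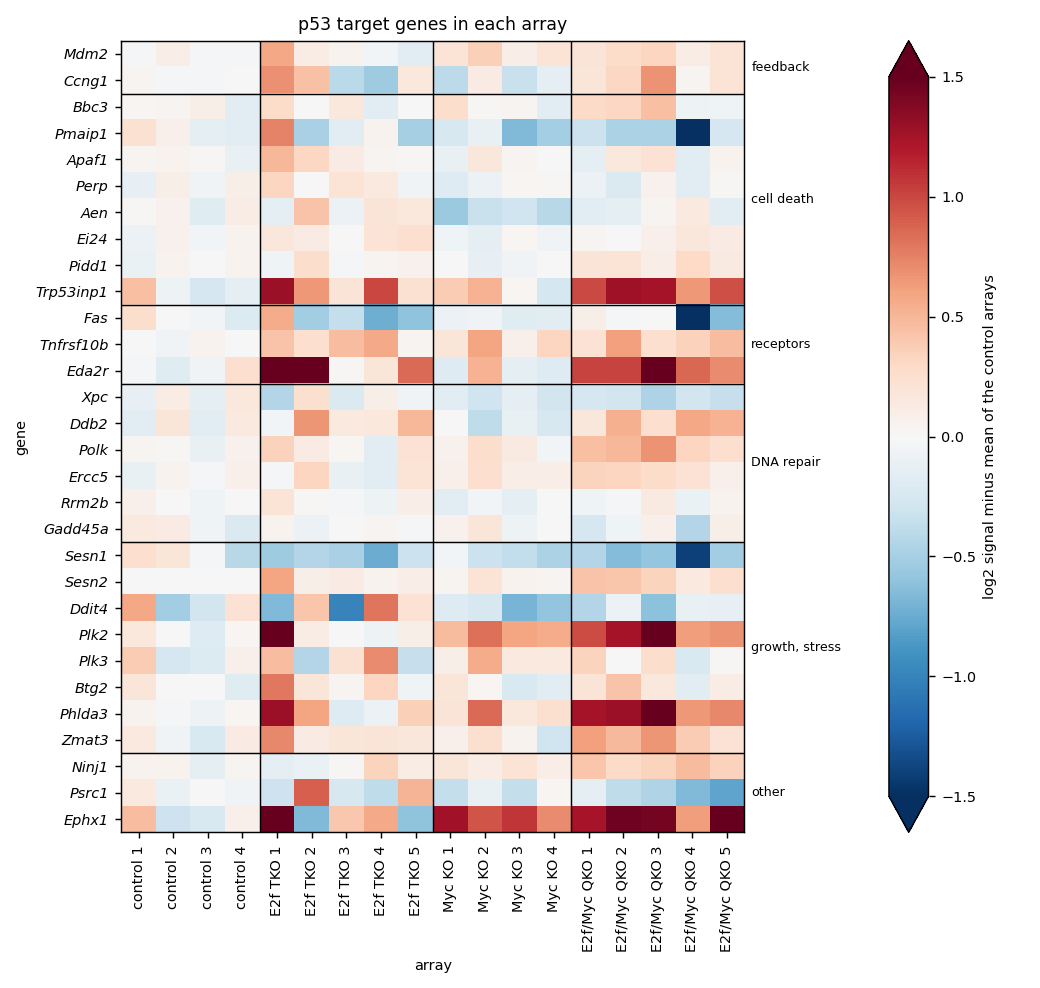
Signal of each of the 30 members (rows, grouped by role) in each of the 18 arrays (columns, grouped by genotype), as the log2 signal minus the mean of the 4 controls, on a blue to red colour scale. E2f TKO 1 is red for most members, and in QKO the red is deepest for Phlda3, Plk2, Eda2r, Trp53inp1 and Ephx1.

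The spread of the members within the groups is given beside that of all genes. The median SD of a member was 0.12 in control, 0.25 in E2f TKO, 0.16 in Myc KO and 0.20 in QKO, beside 0.11, 0.16, 0.11 and 0.14 over all genes. In E2f TKO the SD was above that of control for 28 of 30 members, against 71.8% of all genes. Single arrays carried part of this spread. E2f TKO 1 was the highest of its 5 arrays in 18 of 30 members, while it was the highest for 31.0% of all genes. Its values were 8.50 for Phlda3, 7.80 for Plk2, 6.34 for Eda2r and 8.27 for Sesn2, and its mean over the 30 members was 0.43 above the control mean. In control the first array was the highest in 17 members (27.4% of all genes) and the third the lowest in 12 (22.3%). In Myc KO the second array was the highest in 16 of 30 members (27.9% of all genes), with Phlda3 at 8.07 and Eda2r at 5.34. In QKO the third array was the highest in 11 members (19.9%) and the fourth the lowest in 16 (26.3%). QKO 4 and 5, the arrays with high Xist, were the 2 lowest of the group for most members called higher in QKO. These were Phlda3, Plk2, Polk, Eda2r, Sesn2, Zmat3 and Trp53inp1, and the exceptions were Tnfrsf10b, Ddb2, Ninj1 and Ephx1. With Xist as a covariate 13 members were still called in QKO against control, with Xpc lost and Ercc5 gained.

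**Figure D4:**
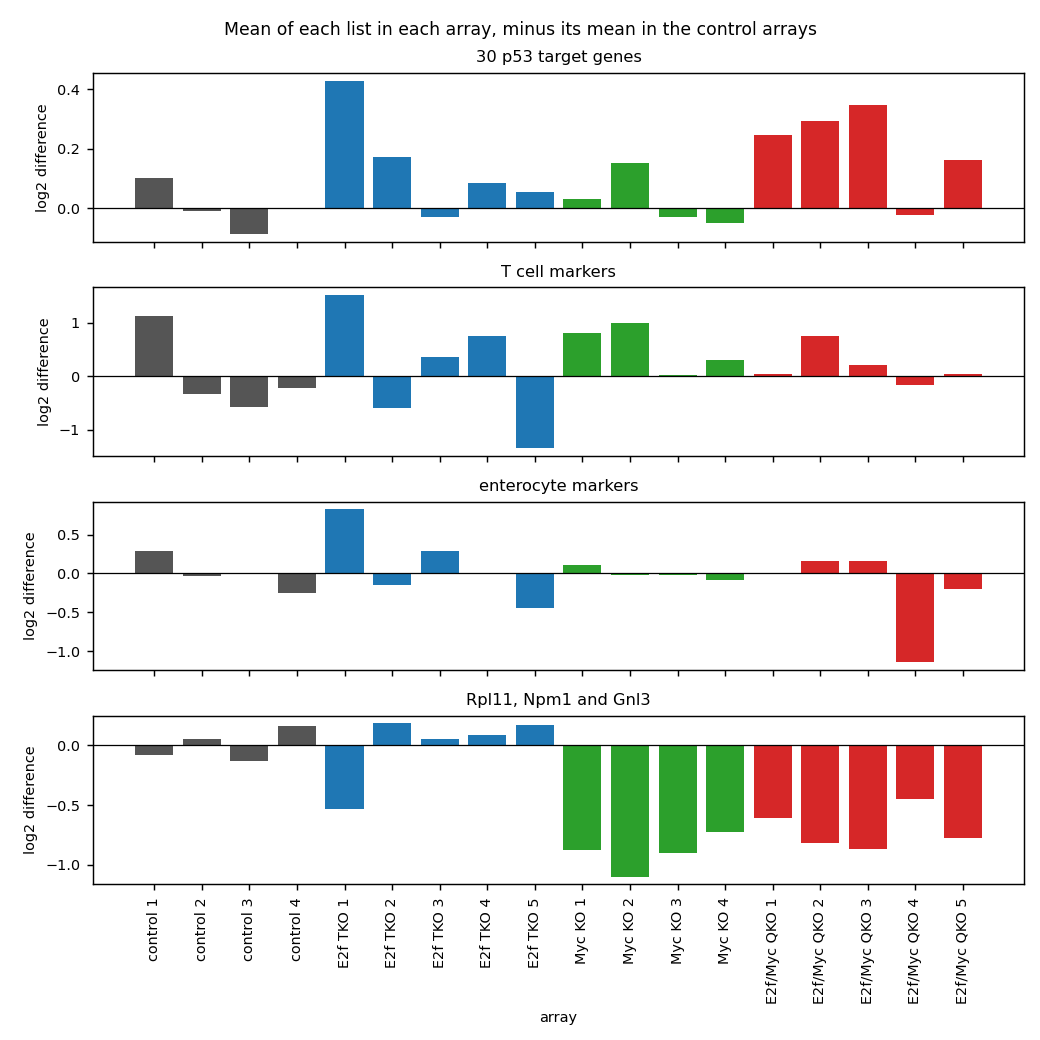
Mean log2 signal of a gene list minus its control mean (vertical axis) in each of the 18 arrays (bars, coloured by group), for the 30 p53 targets, 6 T cell markers, 6 enterocyte markers and the nucleolar genes Rpl11, Npm1 and Gnl3. The p53 targets are highest in E2f TKO 1 (0.43), which is also the highest array for T cell markers (1.52) and enterocyte markers (0.82), and QKO 4 is the lowest for enterocyte markers (-1.14).

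Markers of other cells moved with some of these arrays. The mean of 6 measured T cell markers of 6 listed was 1.52 above the control mean in E2f TKO 1 and 1.00 in Myc KO 2, with a range of -0.58 to 1.13 within control (highest in control 1), -1.35 to 1.52 in E2f TKO, 0.03 to 1.00 in Myc KO and -0.16 to 0.75 in QKO. The mean signals of the 6 ran from 6.497 (Cd8a) to 9.81 (Gzma). The lowest value of any probe set was 2.29, so this scale shows no absence. The mean of 6 of 7 listed enterocyte markers was 0.82 above control in E2f TKO 1 and fell by 1.14 in QKO 4. Enteroendocrine markers (5 of 5 measured) were 0.66 to 1.08 above the control mean in QKO, 0.46 to 0.71 in E2f TKO and 0.26 to 0.64 in Myc KO, against -0.30 to 0.18 within control. Tuft cell markers (4 of 4) were 0.29 to 0.64 above it in QKO, from -0.056 to 0.28 in E2f TKO and 0.17 to 0.23 in Myc KO, against -0.048 to 0.061 within control, and 3 of the 4 were called higher in QKO. Stem cell markers (4 of 4) were 0.063 to 0.97 above the control mean in QKO, from -0.73 to 0.71 in E2f TKO and -0.22 to 0.11 in Myc KO. Within control they ran from -0.14 to 0.11, and 1 of the 4 was called higher in QKO. Lgr5 was at 7.43 to 9.55 in QKO, above all controls (7.17 to 7.40). The means in control and QKO were 8.68 and 9.23 for Ascl2, 13.13 and 13.15 for Olfm4, and 10.73 and 10.65 for Smoc2. Smooth muscle markers (4 of 4, of which 2 were called higher in QKO) were 0.088 to 0.20 above the control mean in QKO, against -0.15 to 0.072 within control. The part of these cells in the members' signals was not tested.

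The genes that act on p53 were examined from a separate list of 20 regulators, of which 19 were measured. In QKO, 4 were higher and 2 lower (of all genes 14.3% and 12.6%), with a median difference of 0.01 beside 0.03 over all genes. Chek1 and Chek2, the checkpoint kinases that phosphorylate p53 after DNA damage, rose by 0.76 ± 0.14 and 0.75 ± 0.14 (limma adjusted p = 9.00e-04 and 0.00111). Their arrays did not overlap with control, and the rise of Chek1 was 0.45 on averaging its probe sets. Rchy1, a ubiquitin ligase of p53, rose by 0.25 ± 0.054 (adjusted p = 0.00268), and Ppp1r13l, which encodes the p53 inhibitor iASPP, by 0.44 ± 0.081 (7.56e-04), or 0.18 on averaging its probe sets. Hipk2, a kinase of p53, and Ep300, its acetyltransferase, differed by -0.35 ± 0.10 (0.0138) and -0.30 ± 0.10 (0.0300). Hipk2 lost its call without control 2, with quantile normalization and on averaging probe sets (up to 0.151). Ep300 lost it in 7 alternatives, 6 of them the loss of a single control or QKO array (up to 0.119). In Myc KO, Ppp1r13l rose by 0.41 ± 0.086 (0.00852), a call lost on averaging its probe sets (difference 0.089, adjusted p = 0.278), and Atr, the kinase of replication stress, differed by -0.57 ± 0.15 (0.0303, up to 0.111 in the 7 alternatives where the call was lost). Mdm4, the partner of Mdm2, was not called, with differences of 0.03 in E2f TKO, -0.21 in Myc KO and 0.02 in QKO. In E2f TKO limma called 0 of 19 (2.90% of all genes), 5 had an unadjusted p below 0.05 (14.0% of all genes), and Chek1 was at 0.47 ± 0.14 (adjusted p = 0.1003).

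Ribosomal and nucleolar proteins that bind Mdm2 are a further input to p53, and 3 of 5 listed genes were measured. All 3 fell in Myc KO and in QKO, where 4.72% and 12.6% of all genes were called lower. In E2f TKO limma called 0 (2.90% of all genes) and 0 had an unadjusted p below 0.05 (14.0%). Rpl11, the ribosomal protein that sequesters Mdm2, differed by -0.58 ± 0.091 in Myc KO (adjusted p = 0.00146) and -0.45 ± 0.086 in QKO (0.00111). Npm1, nucleophosmin, differed by -1.07 ± 0.16 (0.00127) and -0.90 ± 0.16 (4.71e-04), and Gnl3, nucleostemin, by -1.05 ± 0.18 (0.00221) and -0.76 ± 0.17 (0.00307).

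A longer list of 35 other reported p53 targets, 29 of them measured, also held changes in both directions. In QKO 6 were higher and 5 lower (of all genes 14.3% and 12.6%), with a median difference of 0.15 beside 0.03 over all genes. Cdkn1a, the cyclin-dependent kinase inhibitor p21, read 10.71, 10.22, 10.36 and 10.41 in control and 10.91, 10.81, 11.15, 10.12 and 10.49 in QKO, and its difference of 0.27 ± 0.32 was not called (limma adjusted p = 0.564). In E2f TKO it read 11.65, 9.76, 10.61, 11.20 and 9.74, which spans far more than the control range and has its highest array in E2f TKO 1. Shisa5, a membrane protein of the death pathway, rose in QKO by 0.62 ± 0.11 (adjusted p = 6.95e-04), Pml, the organiser of nuclear bodies, by 0.59 ± 0.10 (3.43e-04), and Tigar, a fructose bisphosphatase that slows glycolysis, by 0.56 ± 0.15 (0.0101). Thbs1 (0.39), Casp8 (0.37) and Trp53i11 (0.30) rose as well. Bid, the BH3 protein that links death receptors to mitochondria, fell by 1.16 ± 0.15 in QKO (adjusted p = 3.39e-05), and in Myc KO its difference was -0.58 ± 0.16 (0.0289). Tap1, a peptide transporter, Ckap2, a spindle protein, Sfn, the 14-3-3 sigma gene, and Foxo3 differed by -0.71, -0.70, -0.50 and -0.38 in QKO. Single arrays or other settings ended the QKO calls of Tap1, Thbs1, Trp53i11 and Foxo3 in 6 to 10 of the alternatives (adjusted p up to 0.148), of Sfn without control 4 (0.0514), and of Pml and Tigar on averaging probe sets (0.0900 and 0.0817). The Myc KO calls of Bid and Gtse1 were also lost without single arrays (up to 0.108). In E2f TKO, 1 of the 29 was called (2.90% of all genes), Tap1 at -1.66 ± 0.25 (adjusted p = 8.12e-04) or -0.70 on averaging its probe sets. In Myc KO Gtse1, a spindle protein that restrains p53, was also called, at 0.26 ± 0.065.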

How the data were processed

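Total RNA of 18 crypt samples was labelled with biotin and hybridised to expression arrays, per the labels' protocols. For 45101 probe sets the authors deposited log2 signals. That scale was inferred from their range, the normalization is not given in the sources used here, and no further scaling was applied. Without detection calls, a dim signal cannot be separated from background. Names came from the platform annotation, where 34945 probe sets carry a single symbol, and the brightest stood for each of 18193 genes.

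Differences were tested two-sided with limma (version 3.58.1, R 4.3.3), fitting the 4 group means to all arrays at once, with empirical Bayes moderation and Benjamini-Hochberg adjustment over 18193 genes. Code was tested on simulated data. The number of arrays limits the precision. All members are accounted for; those past the test in a comparison are given array by array in the groups compared, and of the other p53 pathway genes Cdkn1a, Mdm4 and those past the test against control are named, as are Myc, E2f1, E2f2, E2f3 and Cyp1a1 as checks. Members and lists were chosen with earlier results of these data known. The 29 alternatives were quantile normalization, a filter on low signals, other probe set rules, fits of the compared groups alone, a replicate block, trended robust eBayes, array weights, leaving out arrays, and Xist as a covariate, the last chosen after seeing the data. Tables and figures were made with data.table (version 1.17.8), pandas 2.3.3 and matplotlib 3.10.9 in Python 3.11.15.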

Additional observations from a re-analysis of the deposited data

Results flagged for a closer look

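Within the 4 groups, 120 sets of member values were screened for an array whose gap to its nearest neighbour was too large a part of the group's range by Dixon's 95% criterion, and 12 passed. Chance alone singles out about 1 in 20 such sets. In Myc KO the second array stood above the other 3 for Phlda3 (8.07, others 7.38 to 7.46), Eda2r (5.34, others 4.62 to 4.68), Plk3 (7.98, others 7.51 to 7.57), Sesn2 (7.89, others at 7.73) and Ercc5 (8.07, others 7.90 to 7.93). In E2f TKO the first array stood above the other 4 for Plk2 (7.80, others 6.16 to 6.36), Zmat3 (8.79, others 8.19 to 8.27) and Sesn2 (8.27, others 7.74 to 7.80). In QKO the fourth array stood under the other 4 for Pmaip1 (7.34, others 8.57 to 8.80) and Sesn1 (9.17, others 9.93 to 10.14). In control the second array was high for Mdm2 (9.97, others 9.84 to 9.85) and the third was low for Ninj1 (10.24, others 10.42 to 10.43).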

How the results depend on the processing

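None of the 24 member calls reversed under the alternatives tried, and 9 were kept in all that measured the gene: Trp53inp1, Sesn1, Sesn2, Phlda3, Eda2r, Plk2 and Polk in QKO against control, Aen in Myc KO against E2f TKO, and Ddb2 in QKO against Myc KO. For Eda2r and Plk2 there were 28 alternatives, since the filter on low signals dropped them. With every probe set tested, a gene counted as called where any of its probe sets passed. Counts under the alternatives are of members alone. The share of all genes called under each alternative is not given here, so a shift in a count is not read as particular to the members. The count of 13 in QKO against control stayed within 1.5 times under every alternative, and it ran from 9 to 16 when each array was left out in turn. Of 25 same-numbered pairs of arrays, 13 correlated above 0.1, from -0.156 to 0.352. Differently numbered pairs were not examined, so whether replicate numbers pair the arrays cannot be said. With the replicate number as a block the E2f TKO count against control was 1 (Sesn1) in place of 0. That count was also 1 with array weights and 1 when arrays labelled E2f TKO 2 and 5 were left out (Tnfrsf10b in both), and 0 to 1 on leaving out each array. The Myc KO count against control, 1, was 0 after quantile normalization, 2 without the cross-hybridising probe set types, 4 with every probe set tested, 3 with the 2 groups alone, 3 with array weights, 2 when arrays E2f TKO 2 and 5 were left out, and 0 to 3 on leaving out each array (3 without E2f TKO 1). For QKO against E2f TKO the count of 3 was 7 with averaged probe sets, 7 with every probe set, 0 with the 2 groups alone, 9 with array weights and 1 to 9 on leaving out each array. Its median of 0.07 was -0.043 when only genes above the median signal of 7.24 were kept. For QKO against Myc KO the count of 4 was 7 after quantile normalization, 10 with array weights and 1 to 9 on leaving out each array (9 without E2f TKO 1, 2 without Myc KO 1, and 1 without Myc KO 3 or 4 or QKO 2 or 3). For Myc KO against E2f TKO the count of 3 was 8 with every probe set, 1 with the 2 groups alone and 1 to 6 on leaving out each array. Fits without E2f TKO 1 called more members in comparisons that do not use that array because all groups share a variance, and the cause of the other shifts was not tested. Leaving out each array kept the member median at 0.16 to 0.24 in QKO, 0.08 to 0.17 in E2f TKO and -0.03 to 0.05 in Myc KO against control. Signals near background cannot be told from absence.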
